A study of Mus musculus with 8 samples.

Results

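Nanog, the gene of a homeodomain transcription factor of pluripotent cells, was followed across mouse pre-iPSCs in which heterochromatin genes were targeted with siRNA. Of the 45101 probe sets on the array, 1 is annotated to Nanog (1429388_at), and no other probe set carries Nanog as 1 of several symbols. It stands for 1 of the 18193 genes measured. Nanog was chosen because its signal was already known to be higher in both knockdowns on these same arrays. Its differences from control are therefore given as descriptions, with standard errors and without tests.

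Pre-iPSCs are cells that started on the way from somatic cell to induced pluripotent stem cell and stopped short of it. Cultures in medium for embryonic stem cells received siRNA, and after 3 days their total RNA was measured on Affymetrix arrays. The control group (n = 3) received siRNA against luciferase, which has no target in mouse cells. The 3XHMT group (n = 2) received siRNAs against Ehmt1, Ehmt2 and Setdb1 together, and the Cbx3 group (n = 3) siRNA against Cbx3, the gene of HP1 gamma. Neither a strain, a reprogramming system nor the number of cell lines is given in the labels. The labels speak of biological replicates but do not say what was repeated, so every p-value measures only the spread between these samples, which may be technical.

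Nanog works in a circuit with Pou5f1 and Sox2, whose products bind its promoter, and it is known for its part in the last step to pluripotency, before which it is silent or low. Ehmt1 and Ehmt2 place mono- and dimethylation on lysine 9 of histone H3 (H3K9), and Setdb1 places trimethylation. HP1 proteins, HP1 gamma among them, bind these methyl marks and are part of heterochromatin. The design asks which genes respond when the enzymes, or this reader of the mark, are lowered.

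The promoter is shown because the regulators of Nanog described further on act there. It is the window of 250 bases before and 50 bases from the first of 2 annotated start sites, chr6:122707239-122707538 on the plus strand of GRCm38.p6, from RefSeq. Capitals mark the match to the composite motif for an octamer factor and a Sox factor.
Nanog promoter: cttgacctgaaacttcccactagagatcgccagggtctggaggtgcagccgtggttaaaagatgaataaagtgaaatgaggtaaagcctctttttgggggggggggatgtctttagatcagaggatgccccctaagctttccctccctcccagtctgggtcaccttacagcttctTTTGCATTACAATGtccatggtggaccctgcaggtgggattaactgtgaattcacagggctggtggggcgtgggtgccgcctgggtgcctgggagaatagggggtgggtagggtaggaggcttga
The motif was searched on both strands as TTTGCAT, then any base, then ACAATG. Its match lies 75 to 62 bases before the start site. Of 32851 promoter windows of 300 bases, 2 hold a match (0.00609%), and both are windows of Nanog, which overlap. Only the base between the parts is free in this string, so so long a string is rare in any case. Composite sites with other letters were not counted, so the search does not show that Nanog alone has such a site. The octamer part alone, TTTGCAT, is in 4.63% of windows and the Sox part alone, ACAATG, in 12.6%, and both lie inside the composite match. A match is a run of letters and does not show that a factor was bound in these cells.

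Before the values, 1 feature of the arrays has to be named. The signal of a control probe set for 18S ribosomal RNA parts the arrays into 3 sets, called 18S sets here. Control 3, 3XHMT 2 and Cbx3 3 lie at 9.98 to 10.2 on the log2 scale, control 1 and Cbx3 1 at 11.2 to 11.5, and control 2, 3XHMT 1 and Cbx3 2 at 12.6 to 12.8. Arrays of 1 set and different groups deviate from their group means together, so each result is also given with the set as a block in the fit where that changes it. What the sets stand for is not stated in the labels.

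Nanog signal was low on every control array and higher on every knockdown array. On the log2 scale it read 4.87, 5.10 and 5.41 on control arrays 1, 2 and 3. On 3XHMT arrays 1 and 2 it read 8.15 and 7.72. On Cbx3 arrays 1, 2 and 3 it read 7.79, 9.28 and 8.25. All control values lie below the median of all probe sets on their arrays, 5.87 to 5.90, and all knockdown values lie above it, so the groups do not overlap with control. The 3XHMT arrays fall inside the range of the Cbx3 arrays but for 3XHMT 2, which lies just under it.

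**Figure D1:**
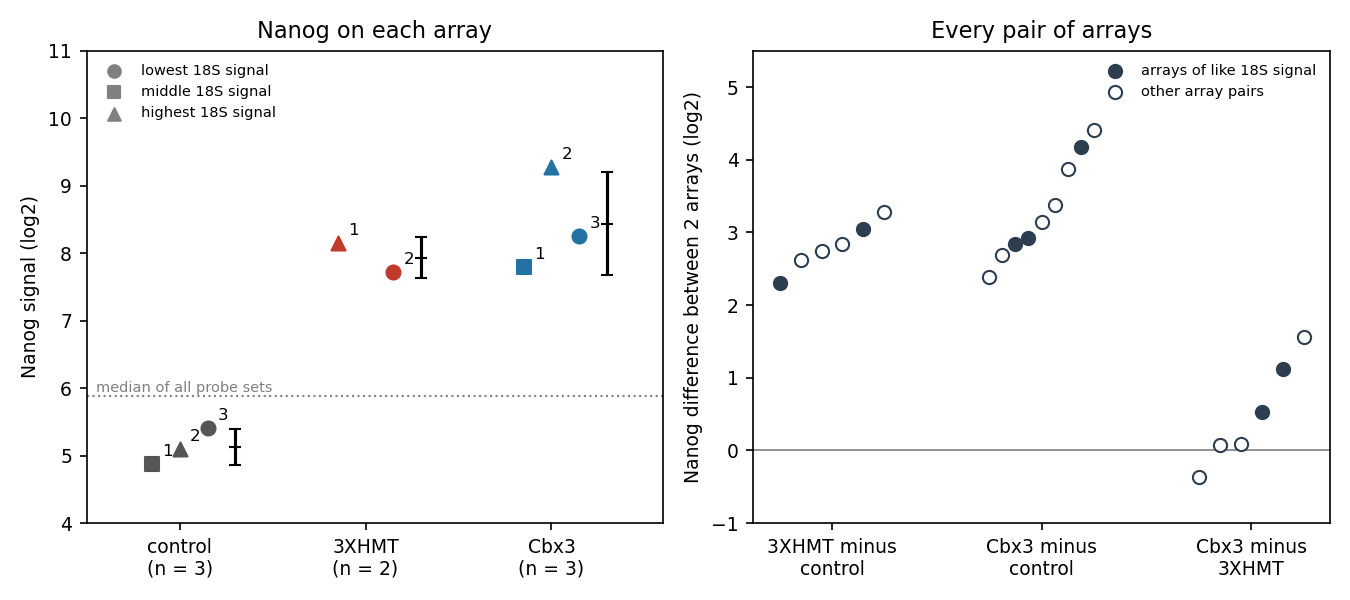
Left, Nanog signal on the log2 scale for each of the 8 arrays, numbered by replicate, with the marker shape giving the 18S set and the bar the mean ± SD of the group; right, the log2 difference in Nanog for every pair of arrays from different groups, filled where both arrays belong to 1 18S set. The control arrays lie at 4.87 to 5.41 and the knockdown arrays at 7.72 to 9.28.

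The group means were 5.13 ± 0.27 (SD, n = 3) in control, 7.94 ± 0.31 (SD, n = 2) in 3XHMT and 8.44 ± 0.76 (SD, n = 3) in Cbx3. The 3XHMT mean stood 2.81 ± 0.39 (SE) above control, or 7.01-fold, with a 95% interval of 3.80-fold to 12.9-fold. The Cbx3 mean stood 3.31 ± 0.35 (SE) above control, or 9.94-fold, with an interval of 5.75-fold to 17.2-fold. Both come from limma's fit to all 8 arrays. The intervals make no allowance for the choice of Nanog for these rises, and are not read as tests. Signal near background compresses such folds. In RNA from whole cultures, Nanog in more cells and more Nanog RNA per cell cannot be told apart.

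Separation of this kind is not rare on these arrays. All 3XHMT arrays lay above all control arrays for 9.28% of genes, and all Cbx3 arrays above all control arrays for 7.52%. Ranked by log2 difference among 18193 genes, Nanog stood in place 1 in Cbx3 cells and in place 5 in 3XHMT cells. In 3XHMT cells it followed Aass (lysine breakdown) at 5.28, Akr1c18 (an aldo-keto reductase) at 3.88, Zfp42 at 3.09 and Scgb3a1 (a secretoglobin) at 2.84. In Cbx3 cells the next were Alox15 (a lipoxygenase) at 2.53, the serpin gene Serpinb9b at 2.01, the coactivator gene Cited1 at 2.00 and Tlr2 (an innate immune receptor) at 1.94. Nanog was also among the more variable genes: its SD within groups was 0.53 against a median of 0.18 over all genes.

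Between single arrays the Nanog difference from control was positive in all 6 pairs for 3XHMT and all 9 for Cbx3. It ran from 2.31 to 3.28 on the log2 scale for 3XHMT (4.96-fold to 9.73-fold) and from 2.39 to 4.40 for Cbx3 (5.23-fold to 21.2-fold). Replicate numbers pair the control and Cbx3 arrays, and same-numbered arrays there also share an 18S set. Within these pairs the differences were 2.92, 4.18 and 2.84 for numbers 1, 2 and 3, so the second pair, at 18.1-fold, stood apart from the others at 7.58-fold and 7.18-fold. For 3XHMT the same-numbered differences were 3.28 and 2.62. Numbers do not pair those arrays: 3XHMT 1 shares its 18S set with control 2, and 3XHMT 2 with control 3, and within the sets the differences were 3.05 and 2.31. With the 18S set as a block the 3XHMT difference was 2.58 ± 0.26 (SE), and the Cbx3 difference stayed at 3.31, now ± 0.22 (SE).

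Of the arrays in each knockdown group, the one in the 18S set of highest signal had the highest Nanog, 8.15 in 3XHMT 1 and 9.28 in Cbx3 2. Among control arrays the highest Nanog, 5.41, was in the set of lowest signal. The part of the 18S signal in the Nanog level was not tested. Without Cbx3 replicate 2 the Cbx3 difference was 2.90, or 7.44-fold.

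The knockdowns were then compared with each other, a contrast that did not enter the choice of Nanog. Nanog stood 0.50 ± 0.39 (SE) lower on the log2 scale in 3XHMT than in Cbx3 cells, which is 1.42-fold (limma adjusted p = 0.761, unadjusted p = 0.226). The 95% interval runs from -1.39 to 0.38, so that a level 2.61-fold higher in Cbx3 cells and a level 1.30-fold higher in 3XHMT cells both lie within it. These data thus do not show that the Nanog level is alike in the knockdowns. Of 6 array pairs, Cbx3 was the higher in 5, by up to 1.56, and 3XHMT 1 lay 0.36 above Cbx3 1. With the 18S set as a block the difference was -0.73 ± 0.26 (SE), with an interval of -1.33 to -0.13 and an adjusted p of 0.139 (unadjusted p = 0.0223). Without Cbx3 replicate 2 it was -0.09 ± 0.25 (SE), so the gap between the knockdowns rests on that array. In this contrast 1.51% of all genes passed (9.12% with the block), which here and below means a Benjamini-Hochberg adjusted p under 0.05 over all genes in limma's fit.

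The targeted transcripts were set beside Nanog array by array. The brightest Cbx3 probe set, which is also annotated to the pseudogene Cbx3-ps5, was at 52.2%, 39.3% and 38.1% of the control mean on Cbx3 arrays 1, 2 and 3. Nanog was lowest on the array with the most Cbx3 signal left, and highest on array 2, where Cbx3 signal was close to that of array 3. On 3XHMT arrays 1 and 2, Setdb1 was at 53.6% and 74.5% of control, Ehmt1 at 68.6% and 92.3%, and Ehmt2 at 74.2% and 60.1%. Those Setdb1 values are from the brightest of its 3 probe sets, with a group mean at 63.2% of control. The others, both dim, stood at 95.3% and 60.9%. Array 1, with the higher Nanog, had the lower Setdb1 and Ehmt1 and the higher Ehmt2. On 3XHMT arrays Cbx3 signal was at 96.1% and 89.9% of control, and on Cbx3 arrays Setdb1 was at 86.9% to 102%. With 2 or 3 arrays per group no relation between target and Nanog level can be tested.

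Genes around Nanog were read by role from a list of 70, of which 67 were measured. Between 3XHMT and control 2 of the 67 passed, both higher, against 0.231% of all genes in either direction and 0.203% higher, and the list's median difference was 0.04 beside 0.01 over all genes. Between Cbx3 and control 0 passed in limma, against 0.445% of all genes, and 10 had an unadjusted p under 0.05, 2 higher and 8 lower, against 9.56% of all genes. The median there was 0.01 beside 0.01 over all genes. With the 18S set as a block the counts were 6 higher and 1 lower for 3XHMT (1.76% of all genes passed, 0.868% higher) and 0 higher and 9 lower for Cbx3 (6.59% of all genes, 3.5% lower). With the replicate number, which pairs control and Cbx3, as the block, 4 of the 67 passed for Cbx3 (1.71% of all genes), and 12 when those 6 arrays were fitted alone (7.96% of all genes).

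**Figure D2:**
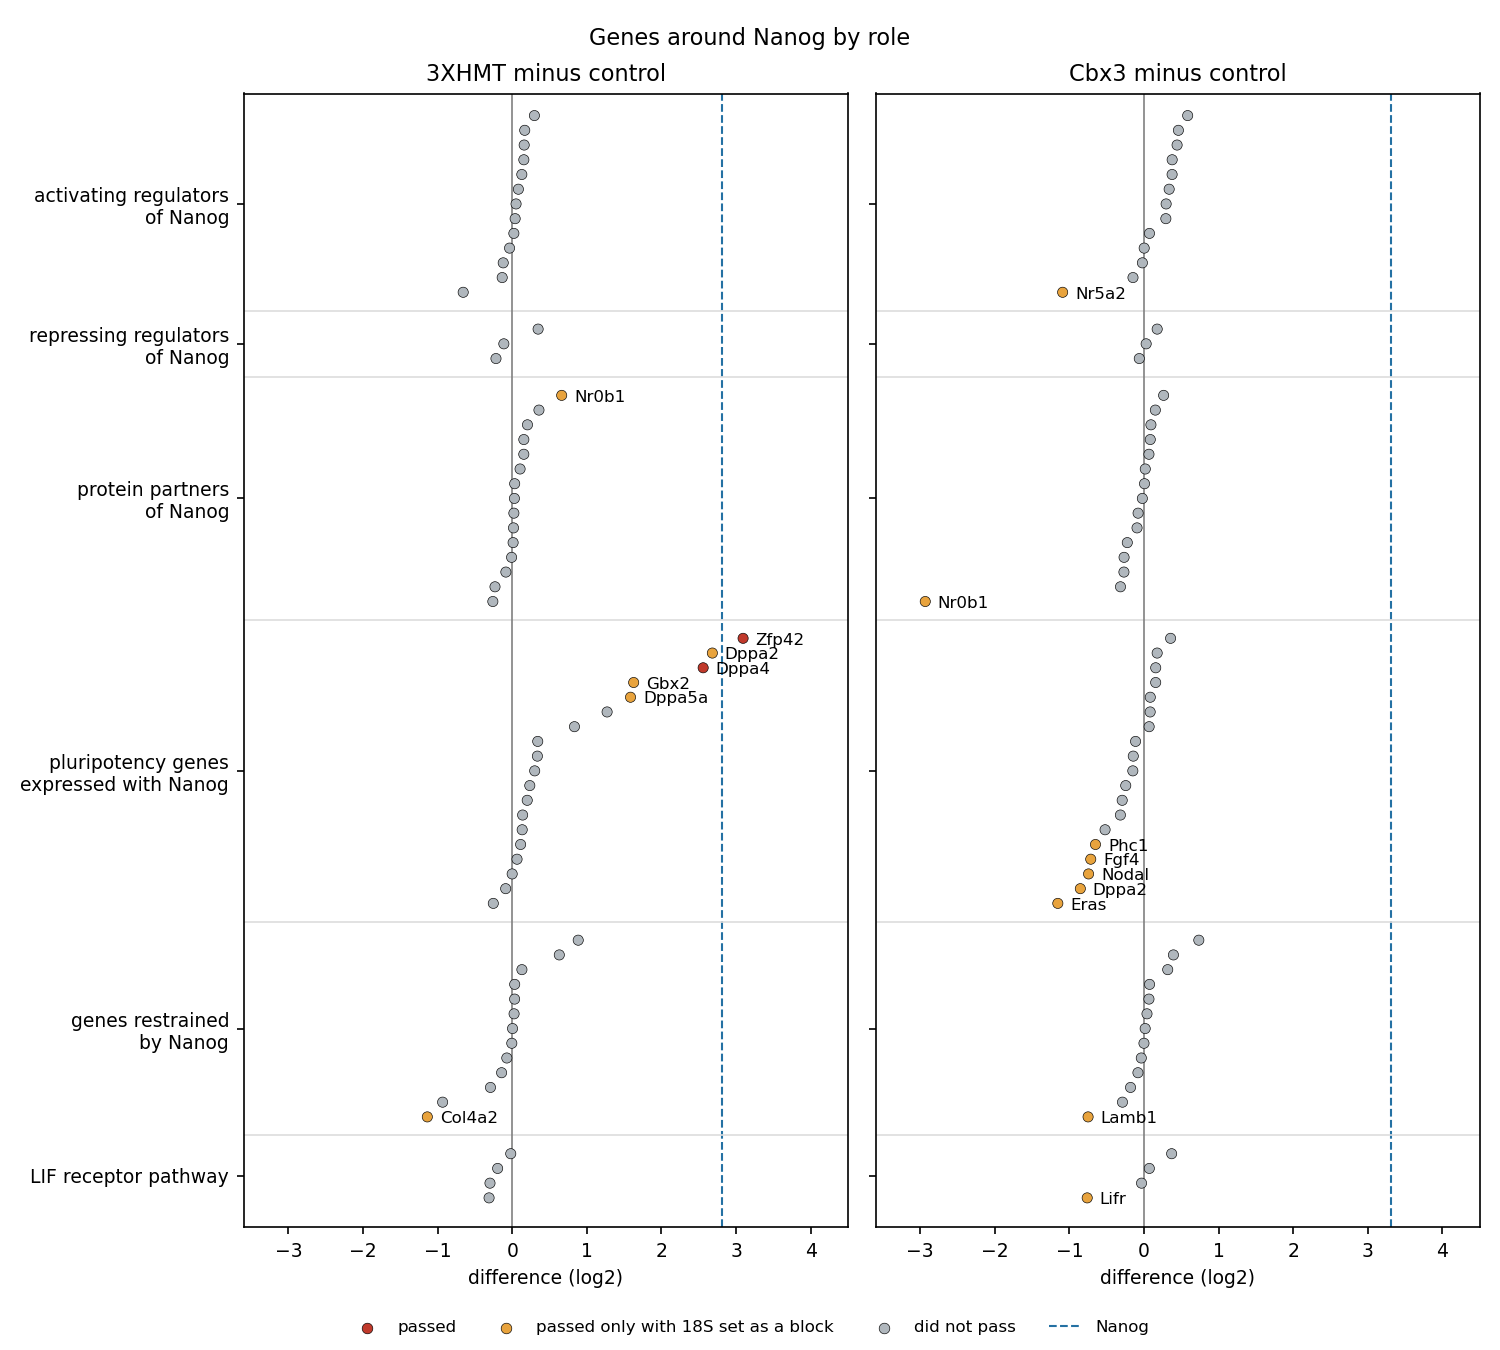
Log2 differences from control for the 67 measured genes around Nanog, grouped by role and ordered by size within a role, in 3XHMT cells (left) and Cbx3 cells (right); the dashed line is Nanog, at 2.81 and 3.31. Coloured points passed in limma, red in the fit without and orange only in the fit with the 18S set as a block; Zfp42 and Dppa4 are the red points, and Nr0b1 lies at 0.66 and -2.93.

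Of the activating regulators of Nanog, 13 of 14 were measured and 0 passed in either comparison with control. Only 0.231% of all genes passed for 3XHMT and 0.445% for Cbx3, so 0 of a short list, here and below, says little. Pou5f1 and Sox2 encode the octamer and Sox factors whose composite motif stands in the promoter shown. Pou5f1 read 13.23, 13.14 and 12.59 in control, 12.95 and 13.13 in 3XHMT, and 12.83, 12.84 and 12.85 in Cbx3. The groups overlap, and the log2 differences were 0.05 ± 0.19 (SE) in 3XHMT and -0.15 ± 0.17 in Cbx3. Sox2 read 7.56, 9.34 and 8.27 in control, 9.24 and 7.85 in 3XHMT, and 8.72, 9.40 and 8.42 in Cbx3. In each group the array of the highest 18S signal had the most Sox2, and the differences were 0.16 ± 0.56 (SE) in 3XHMT and 0.46 ± 0.50 in Cbx3. With the block they were -0.08 ± 0.23 and 0.46 ± 0.20 (limma adjusted p = 0.929 and 0.25), so the sign in 3XHMT turns with the fit.

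Klf4, a reprogramming factor, differed by -0.12 ± 0.36 (SE) and 0.34 ± 0.32, Stat3, the effector of LIF signalling, by -0.04 in 3XHMT and 0.38 in Cbx3, and Sall4 by 0.13 and 0.30. Esrrb, an orphan nuclear receptor gene and known target of Nanog, read 6.10 to 6.38 in control, 6.58 and 6.25 in 3XHMT, and 6.53 to 6.88 in Cbx3. Cbx3 arrays thus lay above control, as they did for 7.52% of all genes, by 0.44 ± 0.14 (limma adjusted p = 0.311, and 0.0540 with the block). Nr5a2, a nuclear receptor gene, went the other way, from 9.06 to 9.38 in control to 7.86 to 8.72 in Cbx3. It differed by -1.09 ± 0.23 (adjusted p = 0.110) and fell with the block (adjusted p = 0.0121). Of the repressing regulators, Tcf7l1, Nr6a1 and Zfp281 were measured and 0 passed, with differences between -0.22 and 0.35. Trp53, a further repressor, was not among the measured genes.

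Protein partners of Nanog, 15 measured, include the NuRD subunits and the dioxygenases Tet1 and Tet2, and 0 passed in either comparison with control. Of all genes 0.231% passed for 3XHMT and 0.445% for Cbx3. Tet1 differed by 0.16 in 3XHMT and -0.27 in Cbx3, and Tet2 by 0.03 and -0.27. Nr0b1, an orphan receptor gene whose product binds Nanog, parted the knockdowns. It read 10.42, 9.58 and 9.14 in control, 10.67 and 10.08 in 3XHMT, and 7.75, 6.84 and 5.75 in Cbx3. All Cbx3 arrays lay below all others, where Nanog was high. For 6.78% of all genes the Cbx3 arrays lay below all control arrays. With the block Nr0b1 rose in 3XHMT (limma adjusted p = 0.0183) and fell in Cbx3 (8.88e-05). In the fit without it the Cbx3 difference of -2.93 ± 0.50 (SE) had a limma adjusted p of 0.0601. The test between the knockdowns put Nr0b1 12.1-fold higher in 3XHMT (adjusted p = 0.0244), while Nanog did not pass that test. Leaving out 1 array gave adjusted p from 0.0255 to 0.147 for Nr0b1. Hdac2, a histone deacetylase gene of NuRD, was the other partner to pass it, 1.60-fold higher in 3XHMT (adjusted p = 0.0363, and 0.0355 to 0.203 without 1 array).

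Pluripotency genes that are expressed together with Nanog in embryonic stem cells were read next. In 3XHMT 16 of 19 measured genes were higher than control, with a median of 0.30 beside 0.01 over all genes. Zfp42 and Dppa4 rose, where 0.203% of all genes passed as higher. Zfp42, a zinc finger gene that marks pluripotent cells, read 6.59, 7.53 and 6.97 in control, 10.73 and 9.52 in 3XHMT, and 6.15, 7.37 and 6.83 in Cbx3. Dppa4, a gene of a chromatin-binding SAP domain protein, read 5.55, 5.54 and 5.48 in control, 8.61 and 7.55 in 3XHMT, and 5.28, 5.08 and 5.25 in Cbx3. The 3XHMT arrays stood apart from all others for both genes, and the Cbx3 arrays did not lie above control for either. For 9.28% of all genes both 3XHMT arrays lay above all control arrays. The rises over control were 3.09 ± 0.45 (SE, limma adjusted p = 0.0452) for Zfp42 and 2.56 ± 0.26 (adjusted p = 0.0135) for Dppa4. Zfp42 did not pass on leaving out any 1 array (adjusted p up to 0.323), and Dppa4 not without control replicate 1 (0.0684) or 2 (0.0746). Dppa5a and Gbx2 rose only with the block, with differences in the fit without it of 1.59 and 1.63. Dppa2 differed by 2.68 without the block (adjusted p = 0.0682) and rose with it. Dppa2 also passed with the replicate number as the block instead (limma adjusted p = 0.0251). The same held at its second probe set (0.0234) and with the mean of probe sets (0.0378). Leaving out any 1 control or Cbx3 array, Dppa2 did not pass (limma adjusted p 0.0798 to 0.200). Without 3XHMT replicate 1 its difference was 2.29, and without 3XHMT replicate 2 it was 3.07.

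In Cbx3 cells 12 of these 19 genes were lower and 7 higher than control, with a median of -0.15 beside 0.01 over all genes. With the block 5 fell, against 3.5% of all genes: Dppa2, Fgf4, Eras, Nodal and Phc1. Eras, a Ras-like gene of embryonic stem cells, read 9.72, 9.29 and 9.92 in control against 8.36, 8.38 and 8.71 in Cbx3. Phc1, a Polycomb gene, read 11.73, 11.69 and 11.54 against 11.02, 10.97 and 11.01. Neither overlaps between the groups, as 6.78% of all genes do not in that direction, with differences of -1.16 ± 0.22 (limma adjusted p = 0.0796; 0.000949 with the block) and -0.65 ± 0.11 (0.0601; 0.00836). None of the 67 genes around Nanog stood more than 1 log2 unit above control in Cbx3 cells. The highest 1% of all genes began at 0.81 there, so few genes of any kind rose that far. Between the knockdowns 5 of the 19 passed, all higher in 3XHMT (0.808% of all genes): Zfp42, Dppa2, Dppa4, Eras and Phc1. Leaving out 1 array gave adjusted p up to 0.0251 for Dppa4, 0.0858 for Dppa2, 0.0987 for Zfp42, 0.18 for Eras and 0.236 for Phc1, so that Dppa4 alone of the 5 passed each time.

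Nanog is known to hold back genes of primitive endoderm. Of the 13 measured genes of that list 0 passed in either comparison with control. With 0.231% of all genes passing for 3XHMT and 0.445% for Cbx3, this says little about the list. Gata6 and Gata4, transcription factors of primitive endoderm, differed by 0.13 and -0.29 in 3XHMT and by -0.18 and 0.00 in Cbx3, from control signals of 5.42 and 5.51, below the array medians. Otx2, a gene of the exit from naive pluripotency, read 6.49, 8.60 and 6.24 in control, 8.10 and 7.38 in 3XHMT, and 8.19, 8.69 and 6.65 in Cbx3. Control 2 lay among the knockdown arrays, and Otx2 differed by 0.63 ± 0.77 and 0.73 ± 0.69. With the block the collagen gene Col4a2 fell in 3XHMT (adjusted p = 0.0243) and the laminin gene Lamb1 in Cbx3 (adjusted p = 0.00496). Of the 13 genes 7 were higher and 6 lower than control in each knockdown. Lama1, another laminin gene, differed by 0.88 in 3XHMT (limma adjusted p = 0.484), and Col4a2 by 0.32 in Cbx3. Between the knockdowns Col4a2 passed, 2.74-fold lower in 3XHMT (limma adjusted p = 0.0378, and 0.0261 to 0.216 without 1 array). Of the 4 LIF pathway genes 0 passed. Lifr, the LIF receptor gene, read 11.41 to 11.68 in control and 10.51 to 11.14 in Cbx3, and fell with the block (-0.76 ± 0.10, adjusted p = 0.00389).

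Nanog lies on chromosome 6 in a neighbourhood that holds other genes of pluripotent cells, and the 8 measured genes on each side of it were read next. Between 3XHMT and control 0 of the 16 neighbours passed in limma and 1 had an unadjusted p under 0.05, against 5.27% of all genes. Between Cbx3 and control 0 passed, 4 had an unadjusted p under 0.05 (9.56% of all genes), and with the block 2 passed (6.59% of all genes), Phc1 lower and Clec4a3, a lectin gene, higher (1.17, adjusted p = 0.00857). Slc2a3, a glucose transporter gene next to Nanog with no annotated gene between them, read 11.07, 12.55 and 12.68 in control, 12.79 and 13.06 in 3XHMT, and 12.32, 12.68 and 12.98 in Cbx3. Control 1 was low, and the other control arrays lay within the range of the knockdown arrays. The differences were 0.82 ± 0.44 (SE) and 0.56 ± 0.40 (adjusted p = 1.00 and 0.824).

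**Figure D3:**
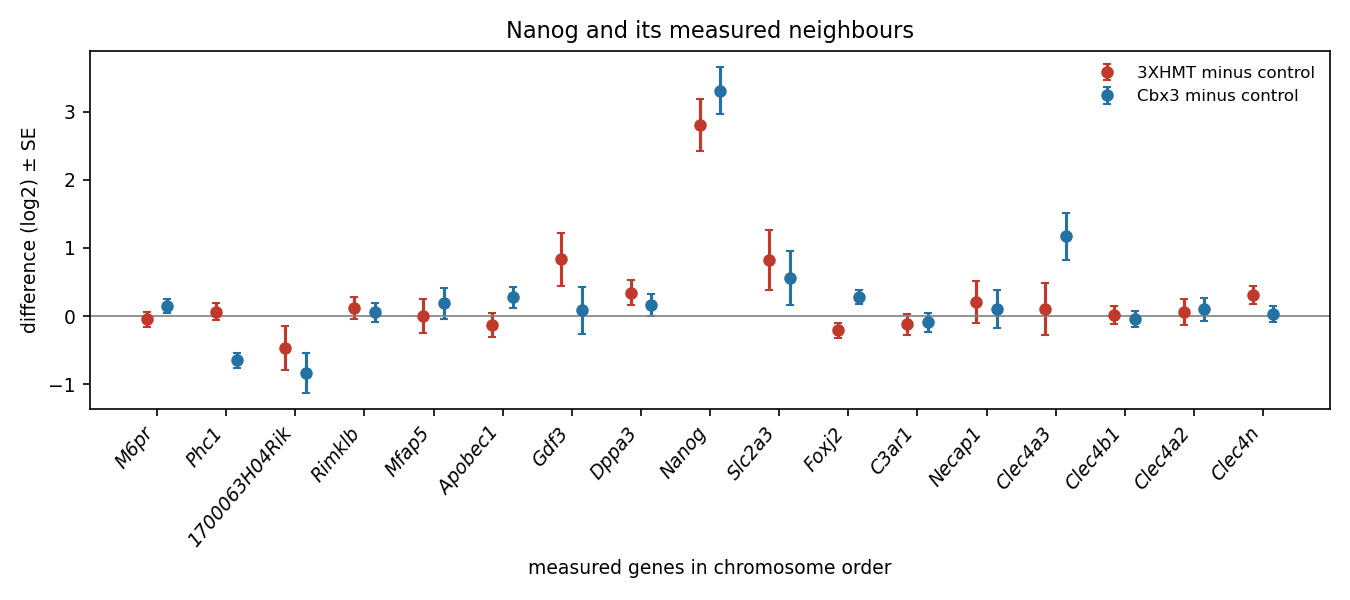
Log2 difference from control ± SE for Nanog and the 8 measured genes on each side of it in chromosome order, in 3XHMT and Cbx3 cells. Nanog stands at 2.81 and 3.31, and its 16 neighbours lie between -0.84 and 1.17.

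Dppa3 and Gdf3, further genes of pluripotent and germ cells, lie on the other side. Dppa3 read 5.14 to 5.78 in control, 5.83 and 5.81 in 3XHMT, and 5.55 to 5.75 in Cbx3, with differences of 0.34 ± 0.18 (SE) and 0.16 ± 0.16. Gdf3 read 6.42 to 7.83 in control, 8.30 and 7.83 in 3XHMT, and 6.94 to 7.67 in Cbx3, with differences of 0.83 ± 0.39 and 0.08 ± 0.35. None of these passed. Over the 16 neighbours the differences ran from -0.47 to 0.83 in 3XHMT and from -0.84 to 1.17 in Cbx3, with medians of 0.06 and 0.10.

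Of the 18192 genes other than Nanog, 2 passed as higher than control in both knockdowns (0.011%), Ptgs2, a prostaglandin synthase gene, and the kallikrein gene Klk1b16. With the 18S set as a block 30 did (0.165%), among them Serpinb9, Serpinb9b, Scgb3a1 and Car2, a carbonic anhydrase gene. These comparisons share their control arrays. Ptgs2 read 7.24, 7.29 and 7.56 in control, 8.67 and 9.19 in 3XHMT, and 9.17, 9.15 and 9.46 in Cbx3. It was 2.97-fold and 3.72-fold higher (limma adjusted p = 0.0283 and 0.00706). Klk1b16 read 4.57 to 5.06 in control, 6.24 and 6.60 in 3XHMT, and 5.92, 6.02 and 6.29 in Cbx3, which is 2.91-fold and 2.30-fold higher (adjusted p = 0.0336 and 0.0368). Kallikrein genes of this cluster are alike in sequence, so signal may be shared between them.

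Likeness to Nanog was measured by Pearson correlation over the 8 arrays among 1186 genes whose SD over the arrays was at least 0.5. It describes these arrays only: the points share groups and 18S sets. The most like were Serpinb9 (r = 0.97), Trim24 (0.96), Ptgs2 (0.94), Serpinb9b (0.93) and Popdc3 (0.92), followed by Enkur, Ptpn13, Sez6, Klk1b16 and Gstk1 (0.88 to 0.89). Of these 10, 5 are also among the top 10 by Spearman correlation, where Ptgs2 takes place 63 and Klk1b16 place 77. With the means of the 18S sets removed 4 are, namely Serpinb9, Trim24, Ptgs2 and Serpinb9b. None of the 10 is in the lists of genes around Nanog. Of the 67, only those with an SD of at least 0.5 were among the 1186 ranked genes, so their absence from a top 10 says little. Serpinb9, a granzyme B inhibitor gene, read 6.44, 6.83 and 7.17 in control, 8.80 and 8.11 in 3XHMT, and 8.27, 8.69 and 8.69 in Cbx3. It was 3.12-fold higher in 3XHMT and 3.33-fold in Cbx3, and its paralogue Serpinb9b, which may share signal with it, 3.36-fold and 4.02-fold. Trim24, a coregulator gene, was 1.77-fold and 2.11-fold higher. These 3 genes were picked for likeness to Nanog, itself chosen for rising in both knockdowns. Their rises are therefore given here as descriptions, without tests.

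**Figure D4:**
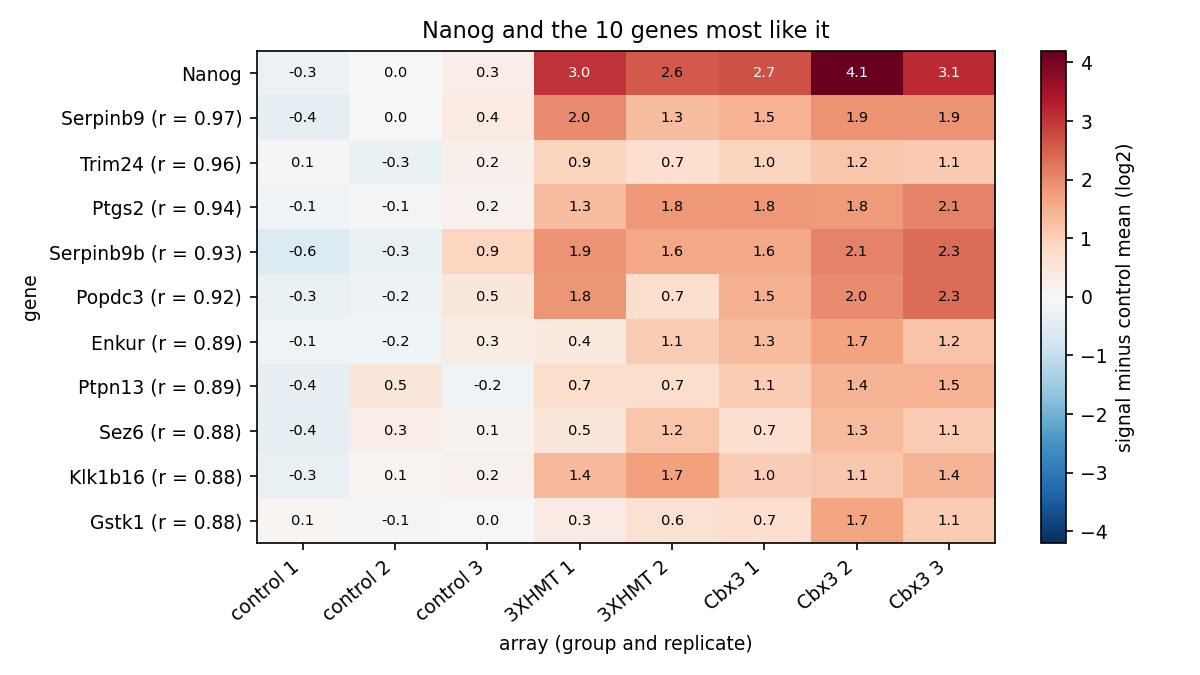
Signal minus the control mean, on the log2 scale, for Nanog and the 10 genes most like it (rows, with Pearson r to Nanog over the 8 arrays) on each array (columns). All rows are higher on the knockdown arrays, which the choice by likeness to Nanog favours, and Nanog spans the widest range.

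Other genes that bear on H3K9 and DNA methylation were read too. Of 16 measured genes of H3K9 methylation and its readers and erasers, the targets included, 0 passed in either comparison with control (Setdb1 fell in 3XHMT with the block, adjusted p = 0.0295). Cbx3 enters this count by the probe set annotated to it alone, which is dim (6.03 in control) and differed by -0.27 in Cbx3 cells, and not by the brightest one given above, at 42.8% of control. Kdm4c, an H3K9 demethylase gene known to act at Nanog in embryonic stem cells, differed by 0.13 ± 0.30 (SE) and -0.09 ± 0.27. Of 5 genes of DNA methylation 0 passed. With 0.231% of all genes passing for 3XHMT and 0.445% for Cbx3, the counts of 0 say little about these lists.

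Markers of other cells were set beside these results. Of 10 measured fibroblast markers 1 or 2 lay above the median signal of genes on each array. Their summed signal on the linear scale was 1376 to 1590 in control, 1430 to 1488 in 3XHMT and 1238 to 1373 in Cbx3. Zeb1 alone gave 810 to 1167 of these sums, and was set apart after its values were seen. The other 9 markers summed to 390 to 423 in control, 548 and 475 in 3XHMT, and 428, 505 and 406 in Cbx3. Without Zeb1 both 3XHMT arrays thus lay above control, as they did for Nanog, and the Cbx3 arrays overlapped with it. Among the 10 markers Dcn differed most from control in 3XHMT, by 1.02 on the log2 scale, and Col1a2 next, by 0.34. The sum without Zeb1 therefore leans on Dcn. Marker by marker, 5 of the 10 fibroblast markers were higher and 5 lower than control in 3XHMT, and the same held in Cbx3. The part of such cells in the Nanog level was not tested. Dcn read 7.56 and 6.94 on the log2 scale on the 3XHMT arrays against at most 6.51 in control, and it was the marker of this list that rose with the block in 3XHMT (adjusted p = 0.0470), though it differed by -0.05 at its second probe set. For 5 macrophage markers the sums were 311 to 453, 358 to 373 and 312 to 550, and Ptprc, which defines blood cells, read 3.32 to 3.43 in the group means.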

How the data were processed

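RNA of 8 cultures was hybridised to Affymetrix Mouse 430 2.0 arrays. The values are log2 signals that the authors computed with RMA and deposited, per the submitters' processing notes; its version and settings are not given. Arrays have no read depth; precision is limited by how many there are. Of 45101 probe sets, 64 are controls, 34958 have 1 gene symbol in the platform annotation, 932 have several and 9211 are not listed, and 34754 matched the RefSeq gene table of GRCm38.p6. Each of 18193 genes was read by its probe set of highest mean (9010 genes have more than 1). RefSeq also lists the pseudogenes Nanog-ps1 and Nanog-ps2, and whether the Nanog probes match them was not tested.

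limma 3.58.1 (lmFit and eBayes, R 4.3.3) estimated the mean of each group from the 8 arrays together, and p-values were adjusted over all genes by Benjamini-Hochberg at a threshold of 0.05. The fit was checked on simulated data. Alternatives were the 18S set or the replicate number as a block, only the groups compared, other probe set rules, another normalization, no dim genes (below 5.89) and leaving out each array. Deviations of same-numbered control and Cbx3 arrays correlated at 0.57, 0.59 and 0.74, so the numbers, which come from the labels, pair them; for 3XHMT they correlated at 0.11 and -0.56 with control.

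Named genes are Nanog, the targets, the 5 largest rises in each knockdown, list members that passed with or without the 18S block, a fixed set of regulators and lineage genes, 8 measured neighbours on each side, the 10 genes most like Nanog and those higher in both knockdowns. Nanog and the lists were chosen with earlier results of these data known.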

Additional observations from a re-analysis of the deposited data

How the results depend on the processing

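Nanog kept its direction in every alternative run. Against control, leaving out an array could not turn it, since every knockdown array lay at least 2.31 above every control array. Nanog has 1 probe set, so the other probe set rules left its differences as they were. Leaving out 1 array gave 2.59 to 3.03 for 3XHMT minus control, 2.90 to 3.64 for Cbx3 minus control, and -0.83 to -0.09 for 3XHMT minus Cbx3. With the replicate block these were 2.83, 3.31 and -0.48. Its place among all genes in 3XHMT was 8 with the 18S block or the second probe sets, 11 among all probe sets and 25 by moderated t, and in Cbx3 it was 7 by moderated t.

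Counts of genes that passed moved more. For 3XHMT minus control (42 genes, 37 higher) they were 320 with the 18S block (158 higher), 97 with the replicate block (60 higher), 10 with only those groups, 24 at second probe sets, 25 over all probe sets, 9 without dim genes and 3 to 22 without 1 array. For Cbx3 minus control (81) they were 1199, 312, 27 with only those groups, 35 over all probe sets, 1448 with the replicate block on control and Cbx3 arrays alone (chosen after seeing the data), and 2 to 34 without 1 array. Between the knockdowns (275) they were 1660, 655, 165 at second probe sets and 22 to 273. Of the 67 genes around Nanog, 3XHMT minus control (2) gave 7 with the 18S block, 0 with only those groups, 1 with cyclic loess or without dim genes and 0 to 1 without 1 array. Cbx3 minus control (0) gave 9, 4 with the replicate block, 12 with that block on those arrays alone, and 1 with the mean of probe sets. The knockdowns against each other (8) gave 17, 4 over all probe sets and 1 to 8 without 1 array. Dcn turned to -0.054 (3XHMT minus control) and -0.023 (3XHMT minus Cbx3) at its second probe set. The cause was not tested.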
